A study of Mus musculus with 21 samples.

Results

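SNARE genes encode the proteins that drive the fusion of a transport vesicle or organelle with its target membrane, and 37 of them were followed here across cells sorted from mouse spleen. The genes were taken from a fixed list of names: a gene was a member if at least 1 probe set of the array was annotated to its symbol alone, and it was read from the probe set with the highest mean signal. All 37 genes had such a probe set and passed the filter on low signal, among 13284 genes tested in all. Of the 37, 13 act mainly on endosomes, lysosomes and the trans-Golgi network (Stx6, Stx7, Stx8, Stx12, Stx16, Stx17, Vamp3, Vamp4, Vamp7, Vamp8, Vti1a, Vti1b and Snap29). The 9 plasma membrane members were Stx2, Stx3, Stx4a, Stx11, Vamp1, Vamp2, Vamp5, Snap23 and Snap47. The 12 members of the endoplasmic reticulum (ER) and Golgi were Stx5a, Stx18, Sec22a, Sec22b, Sec22c, Ykt6, Bet1, Bet1l, Gosr1, Gosr2, Use1 and Bnip1. The last 3, Napa, Napg and Nsf, take used SNARE complexes apart. Some of these proteins work at more than 1 membrane, so the compartments are a convenience of description.

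Fusion needs a SNARE on the vesicle, usually a Vamp protein, to zip up with a syntaxin and a Snap or Vti1 type partner on the target membrane. The ATPase Nsf, with the adaptors alpha-SNAP (Napa) and gamma-SNAP (Napg), then pulls the complex apart so that its parts can be used again. Dendritic cells (DCs) are professional antigen-presenting cells that take up material into endosomes and phagosomes, cut it into peptides and bring peptide-MHC complexes to the surface, and each of these steps includes membrane fusion.

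The 21 arrays covered 7 groups of 3. Splenic DCs were sorted with the antibody 33D1, which marks the CD8-negative subset, or with the antibody DEC205, which marks the CD8-positive subset. Each DC subset came from untreated wild-type C57BL/6 mice (pools of 40 to 80 mice per array) and from C57BL/6 mice injected with Flt3L melanoma and killed on days 10 to 12 (pools of 20). Flt3L is a growth factor that expands DCs, and since it came with a tumour the effects of both cannot be told apart. The 3 lymphocyte groups, B cells and the CD4 and CD8 kinds of T cell, came from wild-type C57BL/6 mice (pools of 5 to 8). Nothing in the labels tells whether pools of a group were sorted separately, so p-values measure only the spread between these arrays. The stated purpose was to compare antigen processing between the DC subsets and to find the surface molecule seen by 33D1.

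Lineage genes went with the titles, although the submitters' descriptions of the lymphocyte arrays speak of DCs. Array 3 of the wild-type DEC205 group read 665.9 for Sirpa, a gene of the CD8-negative subset, where arrays 1 and 2 read 277.3 and 230.8. It was also high in granulocyte genes (S100a8 1017.7 against 182.3 and 179.7, S100a9 805.5 against 191.3 and 80, Ngp 902.9 against 295 and 400.8), while Esam, another gene of the CD8-negative subset, read 619.3 against 461.2 and 647.3. Array 2 of the wild-type 33D1 group was high in S100a8 (611, against 181.8 and 143.3) and in Lyz2, a myeloid gene (3433.6, against 1586.3 and 1117.6). Array 3 of the Flt3L 33D1 group read 2407.2 for Irf8, a gene of the CD8-positive subset, where arrays 1 and 2 read 341.2 and 371.3. Other genes of that subset were also high there: Cd8a (488.7 against 131.8 and 169.9), Xcr1 (463.3 against 101 and 100.5), Cadm1 (597.7 against 208.2 and 188.5) and Tlr3 (401.1 against 194.9 and 307.1). Ly75 (124.7 against 197 and 124) and Batf3 (2831.1 against 2662.2 and 2863.5) were not. Array 3 of the wild-type DEC205 group and array 3 of the Flt3L 33D1 group are called the mixed arrays, and results on the subsets are given with and without both. Array 2 of the wild-type 33D1 group is not counted among them. It also read 456.4 for Irf8 (249 and 250.3 on arrays 1 and 3) and 372.2 for Cd8a (129.4 and 124.7), but not more Xcr1 (143.5 against 130.2 and 210). B cell array 3 read 8361.7 for Jchain, a plasma cell gene, where arrays 1 and 2 read 337.3 and 321.8. Beyond leaving these arrays out, the part of such other cells in the results was not tested. Pearson correlations between arrays of 1 group, across genes, lay between 0.949 and 0.979. In RNA from sorted pools, fewer cells of a type and less RNA per cell cannot be told apart.

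Levels are the deposited signal on its linear scale, and are compared only within a gene. Differences were fitted with limma on log2(signal + 48.6), a scale that understates changes of dim genes, and called at a Benjamini-Hochberg adjusted p under 0.05 over all 13284 genes. Differences given below are on that log2 scale. By limma's F test over the 7 groups, 30 of the 37 members (81.1%) differed among the groups, where 62.7% of all genes did. The 13 endosomal members all passed, as did 7 of 9 plasma membrane, 8 of 12 ER-Golgi and 2 of 3 disassembly members. The 7 that did not pass were Stx4a, Vamp2, Stx18, Sec22a, Sec22b, Bet1l and Napa. With the filter on low signal raised to 527.6, Vti1a, Sec22a, Sec22c and Bet1 dropped out. Then 27 members differed, beside 82.2% of all genes left. The larger share among the members therefore depends on the filter. The ratio of the highest to the lowest group mean ran from 1.14 for Stx18, an ER syntaxin, to 8.2 for Stx3, a plasma membrane syntaxin. Its median was 3.85 over the plasma membrane members, 1.69 over the endosomal, 1.48 over the ER-Golgi and 1.6 over the disassembly members.

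**Figure D1:**
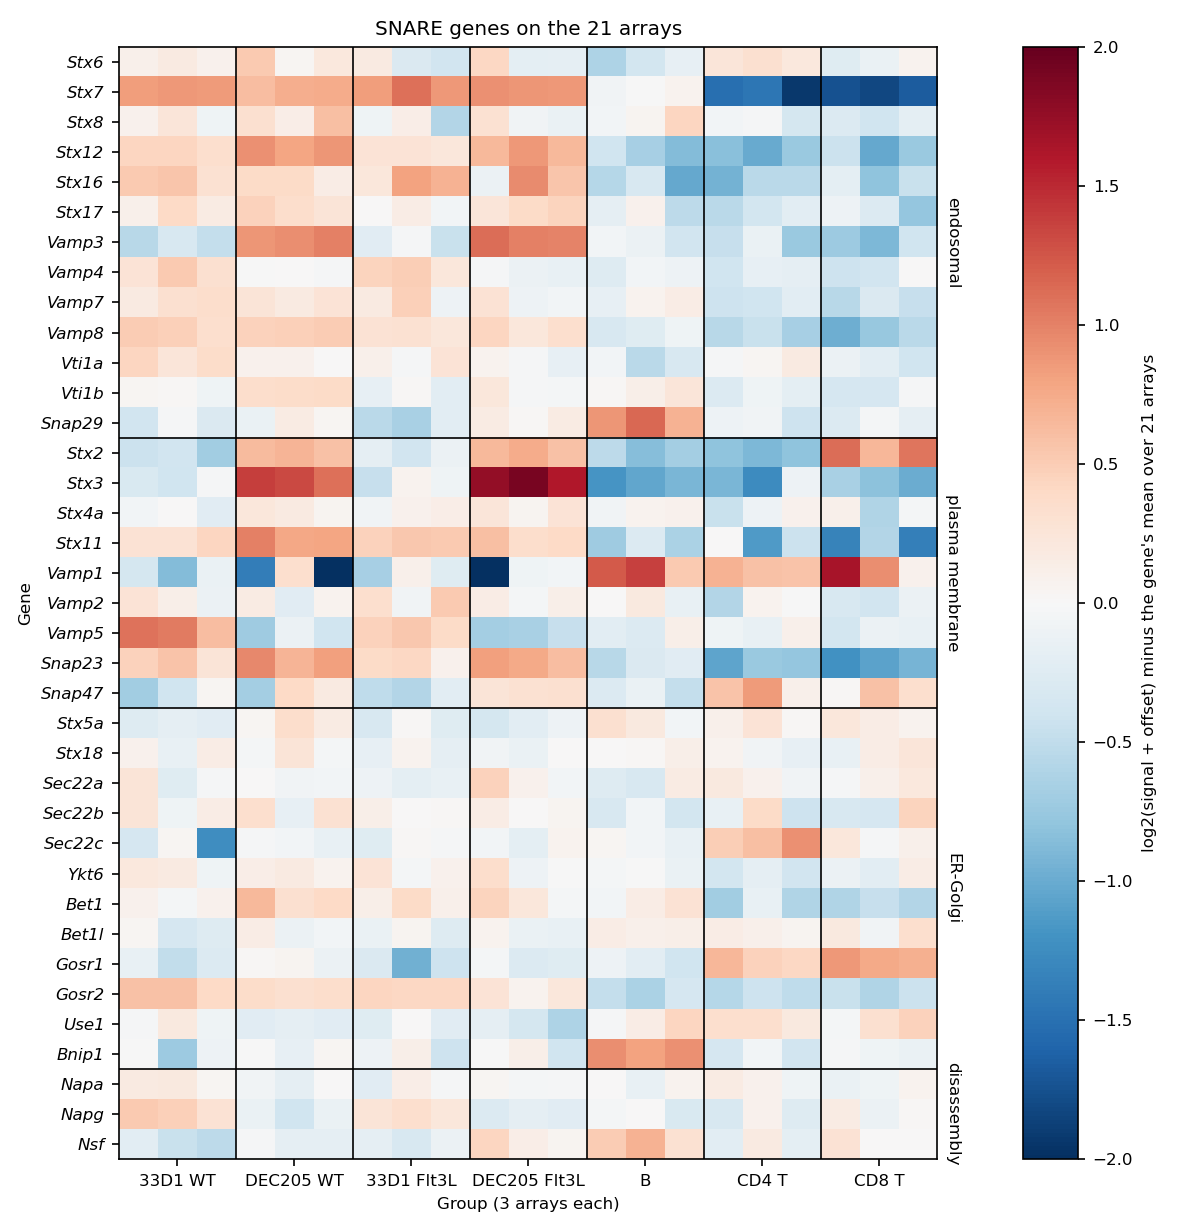
Each row is a SNARE gene and each column an array, 3 per group; colour is log2(signal + 48.6) minus the gene's own mean over the 21 arrays, with values beyond -2 or 2 shown at the end of the scale. Stx7 and Stx12 are high in the 4 DC groups and low in T cells, Stx3 and Vamp3 are high in both DEC205 groups, Snap29 and Bnip1 are high in B cells, and Stx18 and Napa are nearly flat.

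Between the DC subsets of wild-type mice, 10 of 37 members differed (27%), near the 23.1% of all genes. Of the 10, 3 were higher in 33D1 DCs (11.3% of all genes were) and 7 were higher in DEC205 DCs (11.8% of all genes were). In Flt3L mice 11 members differed (29.7%, against 23.5% of all genes), 3 higher in 33D1 DCs (11.7% of all genes) and 8 higher in DEC205 DCs (11.8%). Called in the same direction in both kinds of mice were 8 members, which is 80% of the wild-type calls and 72.7% of the Flt3L calls: Stx3, Vamp3, Stx2, Stx12 and Snap23 were higher in DEC205 DCs, and Vamp5, Napg and Vamp4 were higher in 33D1 DCs. The 2 comparisons use different arrays. How many calls of all genes recur in both kinds of mice was not counted. These shares are therefore not shown to be particular to SNARE genes. Leaving out both mixed arrays left 6 called in wild-type mice (19.4% of all genes) and 8 in Flt3L mice (19.5% of all genes).

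**Figure D2:**
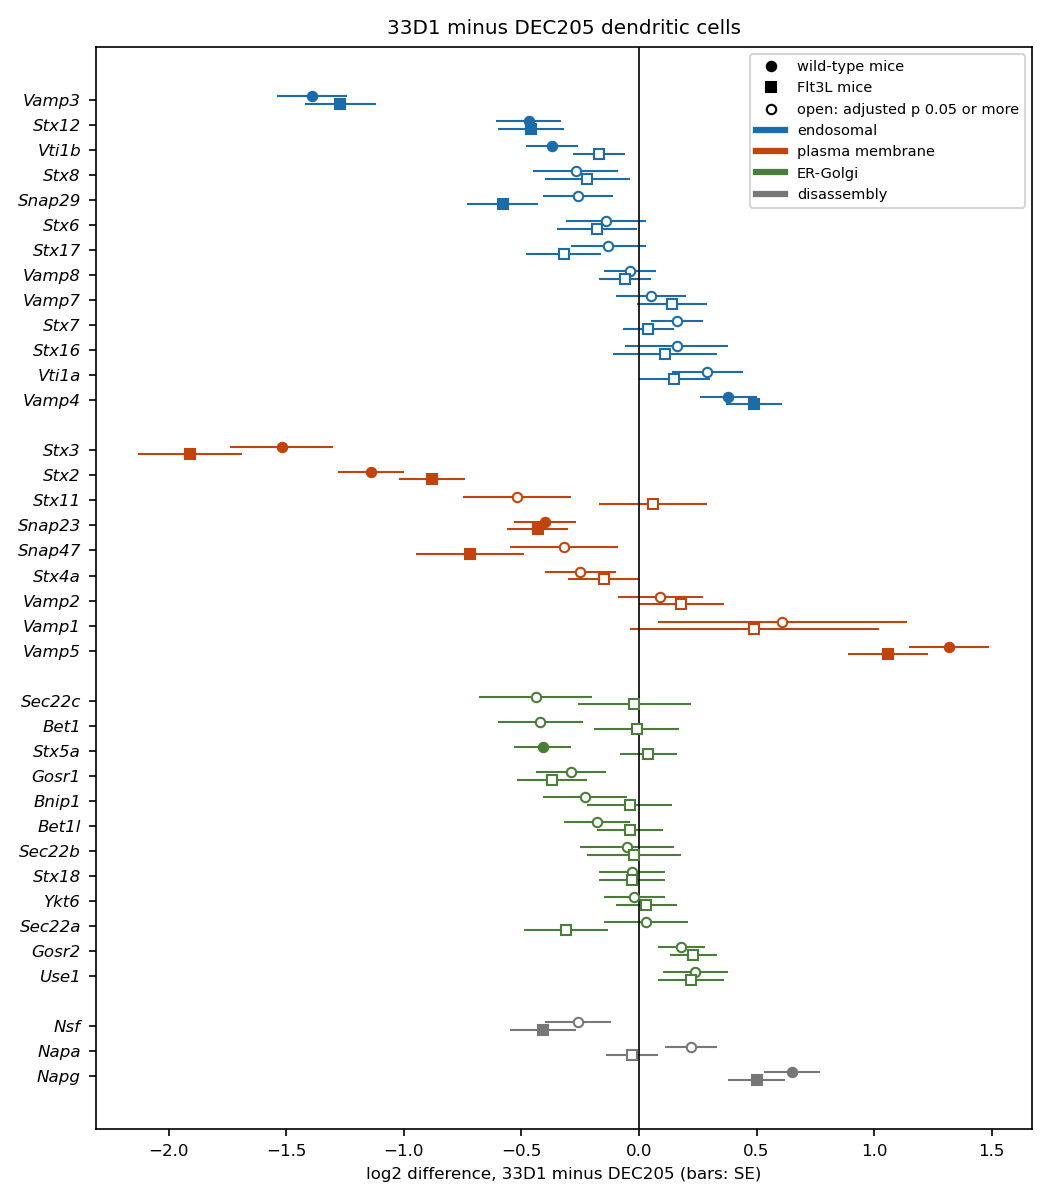
Horizontal axis: limma's log2 difference, 33D1 minus DEC205 DCs, with SE bars, for each SNARE gene in wild-type mice (circles) and Flt3L mice (squares); filled marks have an adjusted p under 0.05 and colours give the compartment. Stx3, Vamp3 and Stx2 stand farthest to the DEC205 side (-1.52, -1.39 and -1.14 in wild-type mice) and Vamp5 farthest to the 33D1 side (1.32), while 1 ER-Golgi member is filled.

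Stx3, a syntaxin of the plasma membrane best known from the apical surface of epithelia, had the largest subset difference of the 37 members. In wild-type mice its signal was 421, 390.0 and 526 on the 33D1 arrays and 1472, 1405 and 1202 on the DEC205 arrays. In Flt3L mice it was 374, 565 and 497 against 1918, 2121 and 1711. Every DEC205 array lay above every 33D1 array. The 33D1 minus DEC205 difference was -1.52 ± 0.22 (SE), adjusted p = 1.31e-05 by limma in wild-type mice, a 2.86-fold difference on this scale, and -1.91 ± 0.22 (SE), adjusted p = 5.79e-07 in Flt3L mice. All 4 of its probe sets above the filter were called in the same direction in both kinds of mice. B cells, at 233.7 ± 26.6 (SD, n = 3), CD4 T cells, at 316.6 ± 158, and CD8 T cells, at 282 ± 40.9, had the lowest means.

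Vamp3 (cellubrevin), the vesicle SNARE of recycling endosomes, followed the same order between the subsets. Its wild-type signal was 1719, 2029 and 1818 in 33D1 DCs and 4750.3, 4889.5 and 5180.2 in DEC205 DCs. In Flt3L mice the values were 2172, 2496 and 1862 and 5554, 5139.9 and 5108. The subsets did not overlap, and the wild-type 33D1 arrays lay within the range of the lymphocytes (means of 2238 ± 263 in B cells, 1883 ± 405 in CD4 T cells and 1598 ± 299 in CD8 T cells, SD, n = 3). The difference was -1.39 ± 0.15 (SE), adjusted p = 1.91e-07 in wild-type mice (2.62-fold) and -1.27 ± 0.15 (SE), adjusted p = 7.78e-07 in Flt3L mice. The probe set used carries the _x_at suffix, which marks probes that may bind other transcripts. A probe set of the gene without that suffix gave -1.34, and 5 of 5 probe sets were called lower in wild-type 33D1 DCs (4 of 5 in Flt3L mice).

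Stx2, another plasma membrane syntaxin (epimorphin), read 452, 466 and 367 on the wild-type 33D1 arrays and 997, 1034 and 965 on the DEC205 arrays. The Flt3L arrays read 545, 471 and 576 and 1010.3, 1082 and 963. Again no 33D1 array reached the DEC205 range, with differences of -1.14 ± 0.14 (SE), adjusted p = 1.85e-06 and -0.88 ± 0.14 (SE), adjusted p = 5.12e-05. The gene also divided the T cells, and there the CD8-positive cells were again the higher ones: 1420.4, 1018 and 1373 in CD8 T cells against 338, 313 and 339.5 in CD4 T cells, a difference of 1.79 ± 0.14 (SE), adjusted p = 2.19e-08 (3.45-fold). It was the 1 member called between CD8 and CD4 T cells (3.26% of all genes were called, 1.63% higher in CD8 T cells). The gene has 1 probe set above the filter.

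Vamp5 (myobrevin), a Vamp protein first described in muscle and placed at the cell surface, went the other way. Wild-type 33D1 DCs read 941, 916 and 671 and DEC205 DCs 239, 385 and 308. In Flt3L mice the signals were 599, 633 and 565 and 244, 249 and 293. The 6 arrays of 33D1 DCs were the highest of all 21, and the DEC205 group means lay below those of B and T cells, which ran from 358.1 to 406.2. The difference was 1.32 ± 0.17 (SE), adjusted p = 4.00e-06 in wild-type mice and 1.06 ± 0.17 (SE), adjusted p = 6.34e-05 in Flt3L mice. A second, dimmer probe set of Vamp5 (mean signal 111.2) gave 0.06 and -0.17, and with the mean of both probe sets the differences were 0.69 (adjusted p = 0.0236) and 0.45 (adjusted p = 0.155).

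**Figure D3:**
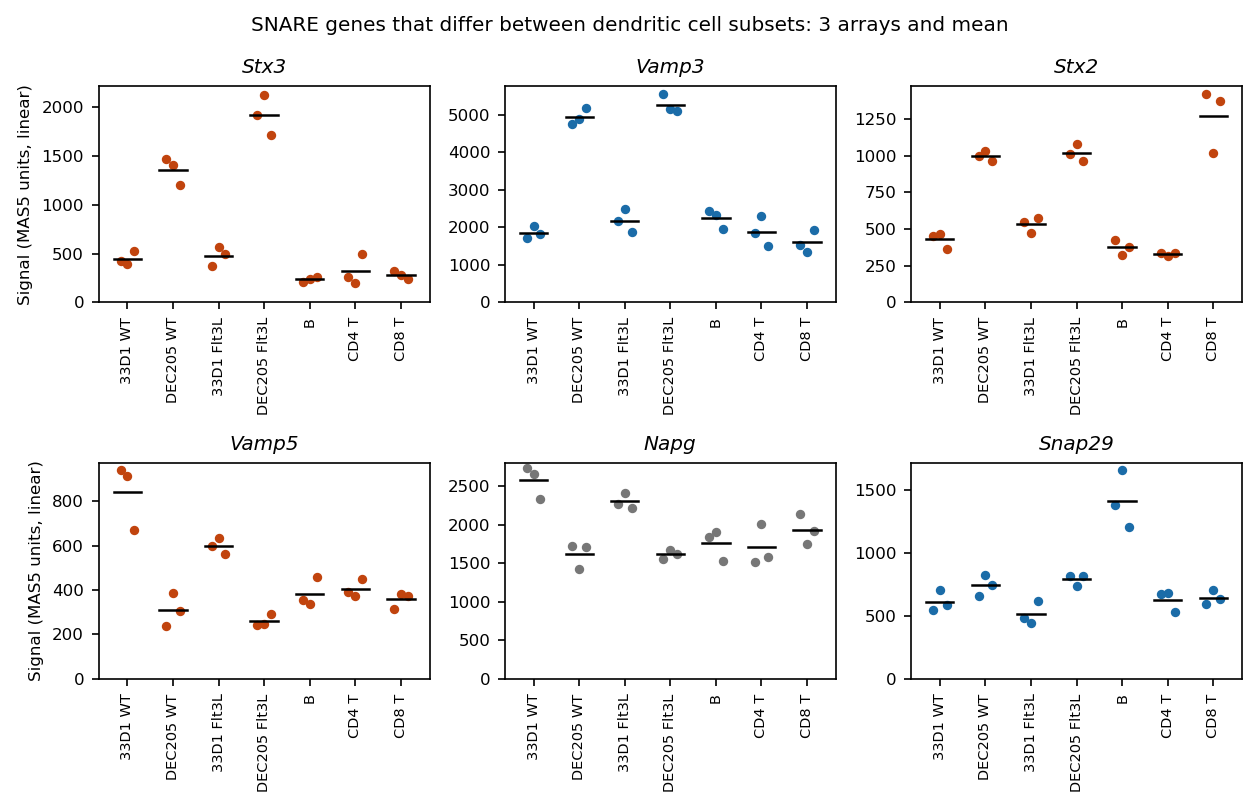
Signal (linear MAS5 units, axes from 0) of 6 SNARE genes in the 7 groups; points are arrays, black lines the means of 3, blue marks endosomal, red plasma membrane and grey disassembly genes. Stx3 and Vamp3 are high in both DEC205 groups, Stx2 in both DEC205 groups and CD8 T cells, Vamp5 and Napg in both 33D1 groups, and Snap29 in B cells.

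The other subset differences were smaller. Napg, the gamma-SNAP adaptor, averaged 2579 ± 212 in wild-type 33D1 and 1623 ± 172 in DEC205 DCs (SD, n = 3), a difference of 0.65 ± 0.12 (SE), adjusted p = 0.000291 (Flt3L 0.50, adjusted p = 0.00409). Vamp4, a trans-Golgi and endosome SNARE, was higher in 33D1 DCs by 0.38 (adjusted p = 0.0226) and in Flt3L mice by 0.49 (adjusted p = 0.00377). Stx12, the recycling endosome syntaxin 13, gave -0.47 and -0.46 (adjusted p = 0.0153 and 0.0162), and Snap23 gave -0.40 and -0.43 (adjusted p = 0.0319 and 0.0187). Without both mixed arrays the wild-type adjusted p became 0.0554 for Stx12, 0.061 for Vamp4, 0.051 for Vti1b and 0.0658 for Snap23, and the Flt3L adjusted p became 0.0629 for Stx12, 0.135 for Snap23 and 0.0651 for Nsf. After centring every array on its median, Napg and Vamp4 were no longer called in Flt3L mice (0.43 and 0.42, adjusted p = 0.0829 and 0.108), nor Vamp4 in wild-type mice (0.29, adjusted p = 0.314). That scaling also lost Snap23 in both kinds of mice (adjusted p = 0.0789 and 0.0693), Vti1b in wild-type mice (adjusted p = 0.0632) and Nsf in Flt3L mice (adjusted p = 0.0766), and it gained Stx11 in wild-type mice (-0.61, adjusted p = 0.0464). With the mean of all probe sets both Stx12 calls were lost (-0.36 and -0.32, adjusted p = 0.0591 and 0.102), 1 of its 2 probe sets having been called.

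Another 5 members were called in 1 kind of mouse. Vti1b, a partner of late endosomal syntaxins, was lower in wild-type 33D1 DCs (-0.37, adjusted p = 0.0144) and gave -0.17 in Flt3L mice (adjusted p = 0.312). Stx5a, the Golgi syntaxin, gave -0.41 in wild-type mice (adjusted p = 0.0137) and 0.04 in Flt3L mice (adjusted p = 0.882). Its wild-type call was lost with quantile normalization (-0.35, adjusted p = 0.0629) and without DEC205 array 2 (-0.33, adjusted p = 0.0852). In Flt3L mice Snap29, Snap47 and Nsf had lower values on the 33D1 side (-0.58, -0.72 and -0.41; adjusted p = 0.00648, 0.0266 and 0.0403), with wild-type values of -0.26, -0.32 and -0.26. The Snap47 call was lost on leaving out any of the Flt3L DC arrays except 33D1 array 3 (adjusted p from 0.0576 to 0.0982). The Nsf call was lost in 9 of 18 alternatives, the mean of all probe sets among them (-0.21, adjusted p = 0.4). Whether the subset difference itself changed between wild-type and Flt3L mice was tested: limma called 0 of 37 members (0.105% of all genes, 0.0903% higher and 0.0151% lower), with 1 at an unadjusted p under 0.05, Stx5a, at 0.44 ± 0.17 (SE), adjusted p = 0.74.

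By compartment, plasma membrane members made up 4 of the 10 wild-type calls and endosomal members another 4, out of 9 and 13 measured (23.1% of all genes were called). Without both mixed arrays 3 plasma membrane, 1 endosomal and 1 ER-Golgi member stayed called in wild-type mice (19.4% of all genes). Of the 12 ER-Golgi members 1 was called in wild-type mice (Stx5a), while limma called 0 in Flt3L mice (23.5% of all genes), with 2 at an unadjusted p under 0.05. The median size of the wild-type difference, regardless of sign, was 0.52 for plasma membrane, 0.26 for endosomal and 0.20 for ER-Golgi members, beside 0.27 for all genes.

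Promoters are shown for the 3 plasma membrane members with the largest subset differences, as the 250 bases before the start site in the RefSeq table (build GRCm38.p6), printed 5′ to 3′ in the direction of the gene. Capitals mark the GC box GGGCGG on either strand; none holds the E-box CACGTG. Stx3 lies at chr19:11819404-11819653 (minus strand), Stx2 at chr5:129008573-129008822 (minus strand) and Vamp5 at chr6:72380469-72380718 (minus strand). The table held 33 of the 37 members, and Vamp2, Vamp3, Vamp7 and Napg were not in it.
Stx3: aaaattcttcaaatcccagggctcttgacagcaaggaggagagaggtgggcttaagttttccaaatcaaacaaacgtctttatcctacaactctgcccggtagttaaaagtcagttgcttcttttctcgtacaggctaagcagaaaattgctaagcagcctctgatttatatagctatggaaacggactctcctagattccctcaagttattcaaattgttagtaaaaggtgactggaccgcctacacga
Stx2: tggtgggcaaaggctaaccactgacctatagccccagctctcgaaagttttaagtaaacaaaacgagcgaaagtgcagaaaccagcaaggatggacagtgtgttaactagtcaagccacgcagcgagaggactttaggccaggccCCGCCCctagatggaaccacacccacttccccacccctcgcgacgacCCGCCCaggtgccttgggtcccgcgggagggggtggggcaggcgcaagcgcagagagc
Vamp5: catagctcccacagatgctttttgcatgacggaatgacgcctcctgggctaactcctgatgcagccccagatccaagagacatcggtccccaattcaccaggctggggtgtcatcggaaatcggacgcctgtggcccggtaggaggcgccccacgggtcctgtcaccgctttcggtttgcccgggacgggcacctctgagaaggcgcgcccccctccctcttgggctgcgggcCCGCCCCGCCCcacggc

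The Stx2 and Vamp5 windows each hold 2 GC boxes and are 60% and 66% G or C, while the Stx3 window holds none and is 42% G or C, below the median of 52.4% for all windows. Over the members, 20 of 33 windows (60.6%) held the GC box and 6 (18.2%) the E-box, where 32.7% and 6.02% of all 32851 windows did. Each member was read at its most upstream start (7 had more than 1), while the 32851 windows take in every start listed. The shares of members and of all windows are therefore not on the same unit. The other motifs searched on both strands were TGANTCA (1 member window, 3.03%, against 6.75% of all), AGGAAGT (0 against 7.69%) and the interferon regulatory factor motif (1, 3.03%, against 2.98%). The 2 matches in the Vamp5 window overlap by 1 base. A match is a description of the letters in the window only.

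By limma no SNARE gene passed the test between Flt3L and wild-type mice within a subset. In 33D1 DCs limma called 0 of 37 members between Flt3L and wild-type mice (1.01% of all genes, 0.851% higher and 0.158% lower), with 1 at an unadjusted p under 0.05, Vamp5, whose signal averaged 599.3 ± 34.2 in Flt3L and 842.6 ± 149 in wild-type mice (SD, n = 3; -0.45 ± 0.17 (SE), adjusted p = 0.309). In DEC205 DCs limma also called 0 of 37 (2.11% of all genes, 1.22% higher and 0.888% lower), with 4 at an unadjusted p under 0.05. The smallest p was that of Stx5a, with 2263, 2478 and 2706 in Flt3L and 2988, 3689 and 3237 in wild-type DEC205 DCs. These do not overlap, and the difference was -0.40 ± 0.12 (SE), adjusted p = 0.0861. The other 3 were Vti1b (-0.32), Nsf (0.33) and Stx3 (0.48), with adjusted p from 0.166 to 0.358. Each of these comparisons uses arrays that also enter the subset comparisons.

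Between wild-type DCs, taken as the mean of both subsets, and lymphocytes the SNARE genes differed more widely. Against T cells 24 of 37 members differed (64.9%, with 52.7% of all genes), 18 higher in DCs (22.7% of all genes) and 6 lower (30% of all genes). Against B cells 19 differed (51.4%, with 40% of all genes), 15 higher (18.8% of all genes) and 4 lower (21.1% of all genes). With the filter raised to 527.6, 22 members differed against T cells, 16 of them higher, beside 68.7% of all genes left. Against B cells 18 then differed, 14 of them higher, beside 56.5%. The larger shares called therefore depend on the filter. Higher than in both B and T cells were 13 members, 8 of them endosomal (Stx7, Stx12, Stx16, Stx17, Vamp3, Vamp4, Vamp8 and Vti1a), 4 at the plasma membrane (Snap23, Stx11, Stx3 and Vamp5) and 1 of the Golgi (Gosr2). Vamp1 and Nsf were lower than in both. With the mean of all probe sets of a gene in place of the brightest, 10 of the 13 kept both calls, and Vamp4, Vti1a and Vamp5 lost both. The 2 comparisons share the DC arrays, so some overlap is built in, and the share of all genes higher in both was not counted.

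Stx7, the syntaxin of late endosomes and lysosomes, showed the largest difference between DCs and T cells. Its signal was 6322, 6472 and 6410.5 in wild-type 33D1 DCs and 5423, 5874 and 5944 in DEC205 DCs. B cells read 3348, 3522 and 3715, CD4 T cells 1212, 1264 and 890.0 and CD8 T cells 1019, 966 and 1076. DCs, B cells and T cells formed 3 separate levels with no overlap, and the Flt3L DCs, at 6798 ± 733 and 6583 ± 105 (SD, n = 3), lay with the wild-type DCs. The differences were 2.46 ± 0.08 (SE), adjusted p = 5.30e-17, between DCs and T cells (5.5-fold), 0.77 ± 0.10 (SE), adjusted p = 8.61e-07, between DCs and B cells, and 1.68 ± 0.10 (SE), adjusted p = 3.56e-12, between B and T cells.

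Vamp8 (endobrevin), a vesicle SNARE that pairs with Stx7, Stx8 and Vti1b on late endosomes, had wild-type means of 5376 ± 365 in 33D1 and 5522 ± 93 in DEC205 DCs (SD, n = 3). B cells averaged 3406 ± 293, CD4 T cells 2670 ± 204 and CD8 T cells 2326 ± 366. DCs were higher by 1.12 ± 0.08 (SE), adjusted p = 3.00e-11, than T cells and by 0.67 ± 0.09 (SE), adjusted p = 4.00e-06, than B cells, and the subset difference was -0.04 (adjusted p = 0.867). Related late endosomal genes were higher in DCs than in T cells too: Vti1b by 0.39, Stx8 by 0.43 and Vamp7, the other late endosomal Vamp, by 0.65 (adjusted p = 0.00018, 0.00618 and 1.37e-05). Against B cells these 3 were not called (0.05, 0.07 and 0.24; adjusted p = 0.705, 0.761 and 0.148).

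The promoters of Stx7, at chr10:24149039-24149288 (plus strand), and Vamp8, at chr6:72390668-72390917 (minus strand), are shown as the pair of late endosomal partners that were both higher in DCs; the window of Vamp8 also lies on the same chromosome and strand as that of Vamp5, which differed between the subsets while Vamp8 was not called. Neither window holds a GC box or an E-box, so no letters are in capitals.
Stx7: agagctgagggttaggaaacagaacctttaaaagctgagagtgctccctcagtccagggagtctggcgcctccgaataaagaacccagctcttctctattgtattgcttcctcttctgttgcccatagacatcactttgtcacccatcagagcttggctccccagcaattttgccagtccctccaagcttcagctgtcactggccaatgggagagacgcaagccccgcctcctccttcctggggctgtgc
Vamp8: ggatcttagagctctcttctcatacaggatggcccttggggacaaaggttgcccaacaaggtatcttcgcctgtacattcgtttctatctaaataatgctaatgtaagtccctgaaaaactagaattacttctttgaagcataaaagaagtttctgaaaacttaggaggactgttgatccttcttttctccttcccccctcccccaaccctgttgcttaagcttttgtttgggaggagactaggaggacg

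Stx12 read 1596, 1604 and 1488 in wild-type 33D1 DCs and 2255, 2072 and 2205 in DEC205 DCs. Lymphocytes read 874, 721 and 620.1 (B cells), 633, 560.5 and 686 (CD4 T cells) and 855, 556 and 682 (CD8 T cells). All DC arrays lay above all lymphocyte arrays, by 1.43 ± 0.10 (SE), adjusted p = 2.67e-11, over T cells and 1.28 ± 0.12 (SE), adjusted p = 9.54e-09, over B cells. Stx16, a syntaxin of the trans-Golgi network, read 4410.1, 4516 and 3769 and 3989.6, 3988 and 3381 in the wild-type DC subsets and 2039, 2425 and 1472 in B cells. In CD4 T cells it read 1552, 2076 and 2092 and in CD8 T cells 2659, 1722 and 2219. It was likewise higher in DCs on every array (1.02 ± 0.19 (SE), adjusted p = 0.00018, against B cells and 0.96 ± 0.16 (SE), adjusted p = 2.17e-05, against T cells). The other endosomal genes higher in DCs than in both were Stx17, the autophagosome syntaxin (0.50 over B and 0.66 over T cells), Vti1a, a trans-Golgi partner of Stx16 (0.51 and 0.29), Vamp4 (0.32 and 0.44) and Vamp3 (0.44 and 0.81). For Vamp3 the DC mean was raised by the DEC205 subset, with 4940 there and 1855 in wild-type 33D1 DCs. Stx6, another trans-Golgi syntaxin, was higher than in B cells (0.57, adjusted p = 0.00324) and gave 0.11 against T cells (adjusted p = 0.446). Vamp4 and Vti1a depended on the probe set. With the mean of all probe sets Vamp4 gave 0.03 against B and 0.12 against T cells (adjusted p = 0.856 and 0.277), and Vti1a gave 0.27 and 0.17 (adjusted p = 0.187 and 0.261). Vamp4 against B cells was also lost with median centring (adjusted p = 0.0966).

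Snap23, the widely expressed relative of the neuronal Snap25 and a partner of plasma membrane syntaxins, read 1933, 2075 and 1668 in wild-type 33D1 DCs and 2755, 2265 and 2496 in DEC205 DCs. B cells read 929, 1126 and 1178, CD4 T cells 647, 814 and 790.3 and CD8 T cells 572, 636 and 708. DCs were the highest without overlap: 1.59 ± 0.09 (SE), adjusted p = 2.07e-12, against T cells and 0.98 ± 0.11 (SE), adjusted p = 2.88e-07, against B cells. Stx11, the syntaxin that cytotoxic lymphocytes need for granule release, read 707, 708 and 787 and 1191, 1012 and 1014 in 33D1 and DEC205 DCs of wild-type mice. B cells read 330.3, 464 and 350.5, CD4 T cells 571, 233 and 411 and CD8 T cells 198, 362 and 190.4. The DC arrays were again all above the lymphocyte arrays (1.41 ± 0.16 (SE), adjusted p = 1.18e-07, against T cells and 1.13 ± 0.20 (SE), adjusted p = 5.88e-05, against B cells), while CD4 T cells varied from 232.9 to 571.2. Stx3 was also higher in the DC mean, by 1.56 over B cells and 1.30 over T cells, and its level in DEC205 DCs was the larger part of that mean. Stx2 was higher than in B cells (0.75, adjusted p = 3.45e-05), and Vamp5 gave 0.38 against each. The DC mean of Vamp5 was raised by the 33D1 subset, with 842.6 there and 310.7 in wild-type DEC205 DCs. Its call against B cells was lost in 13 of 21 alternatives. Among them were leaving out both mixed arrays (adjusted p = 0.0782) and median centring (adjusted p = 0.0645). With the mean of both probe sets Vamp5 gave 0.30 against B cells and 0.02 against T cells (adjusted p = 0.219 and 0.923), since the second probe set gave -0.34 against T cells.

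**Figure D4:**
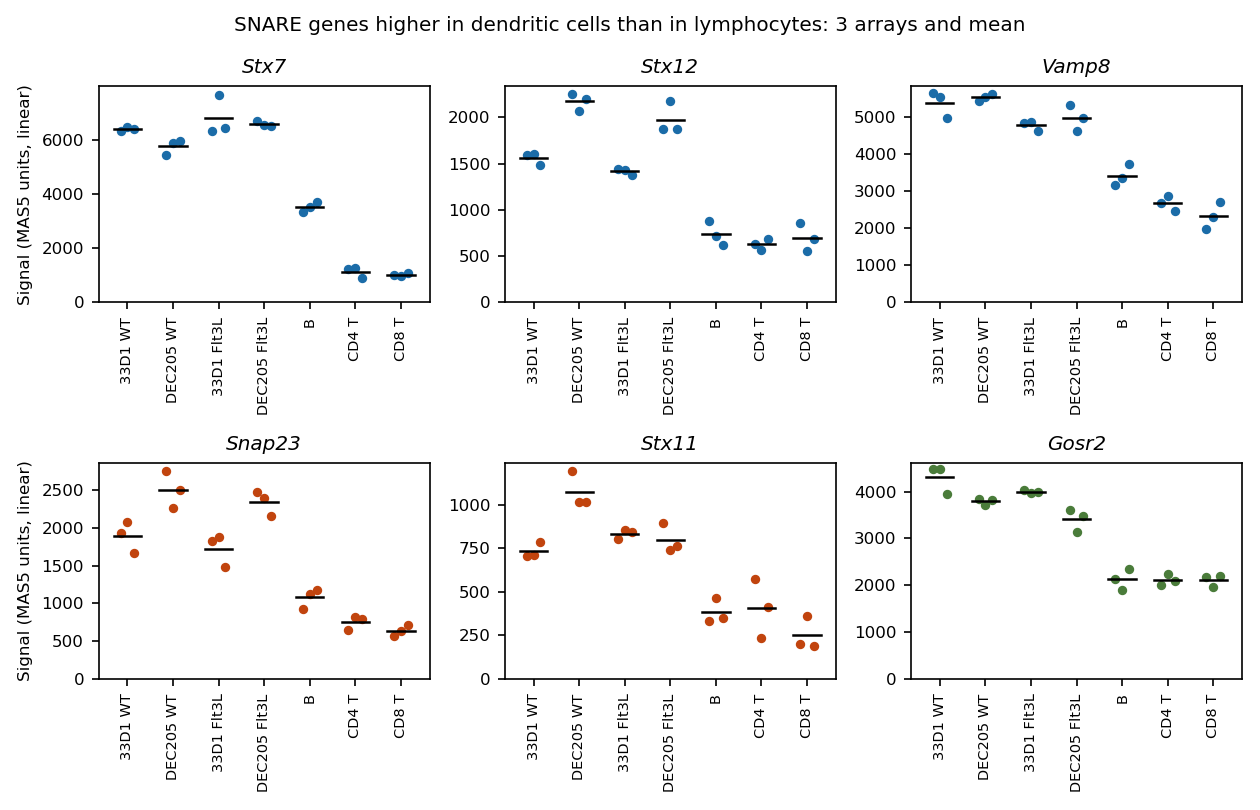
Signal (linear MAS5 units, axes from 0) of 6 SNARE genes in the 7 groups; points are arrays, black lines the means of 3, with endosomal genes in blue, plasma membrane genes in red and an ER-Golgi gene in green. In each panel the DC arrays lie above the lymphocyte arrays, and for Stx7 the B cells (3348 to 3715) lie between the DCs and the T cells.

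Gosr2 (membrin), a Golgi SNARE, had the smallest adjusted p between DCs and B cells. It read 4481, 4493 and 3952 in wild-type 33D1 and 3847, 3722 and 3827 in DEC205 DCs, and 2136, 1901 and 2344 in B cells. In CD4 and CD8 T cells it averaged 2104 ± 119 and 2112 ± 133 (SD, n = 3). The 3 kinds of lymphocyte overlapped, and DCs were higher by 0.92 ± 0.08 (SE), adjusted p = 7.98e-09, over B cells and 0.93 ± 0.07 (SE), adjusted p = 1.23e-10, over T cells; both of its probe sets were called higher in each. Gosr1 (GS28), also of the Golgi, went the other way against T cells, with means of 648.9 ± 84.2 and 802.7 ± 55.6 in the wild-type DC subsets and 1174 ± 112 and 1421 ± 77 in CD4 and CD8 T cells (SD, n = 3; -0.80 ± 0.11 (SE), adjusted p = 1.62e-06). Of the other ER-Golgi members, Bet1 and Ykt6 were higher in DCs than in T cells (0.77 and 0.31; adjusted p = 1.78e-05 and 0.00765), and Sec22c and Use1 were lower (-0.68 and -0.36; adjusted p = 0.00154 and 0.00395). The Use1 call was lost with median centring (-0.25, adjusted p = 0.125). Sec22b, which has been studied for its part in cross-presentation, averaged 1315 ± 163 and 1370 ± 261 in wild-type 33D1 and DEC205 DCs (SD, n = 3), a difference of -0.05 ± 0.20 (SE) with an adjusted p of 0.921, and was not called in any comparison as fitted. With array weights it was called higher in DCs than in B cells (0.35, adjusted p = 0.0494) and T cells (0.30, adjusted p = 0.0486). The mean of its probe sets (0.32, adjusted p = 0.043) and a fit of only the compared groups (0.38, adjusted p = 0.0414) also gave the B cell call. So did leaving out wild-type DEC205 array 2 (adjusted p = 0.0383), and without CD8 array 3 the T cell call was gained (adjusted p = 0.0354). Its second, dimmer probe set averaged 796 in wild-type 33D1 and 529 in DEC205 DCs, and 728 and 580.3 in Flt3L mice.

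Vamp1 (synaptobrevin 1), a vesicle SNARE best known from neurons, was the member farthest below the lymphocytes. It read 1099.7, 1215 and 658 in B cells, 744, 684 and 676 in CD4 T cells and 1483, 879.5 and 471 in CD8 T cells. In wild-type DCs it read 337, 220.2 and 396 (33D1) and 139.7, 569 and 62.7 (DEC205). Arrays of 1 group scattered widely, and 1 DEC205 array lay inside the CD8 T cell range. The differences were -1.80 ± 0.46 (SE), adjusted p = 0.00292, from B cells and -1.50 ± 0.37 (SE), adjusted p = 0.00164, from T cells. Snap47 was lower than in T cells (-0.61, adjusted p = 0.00364). Nsf was lower than in B cells (-0.76, adjusted p = 2.79e-05) and than in T cells (-0.27, adjusted p = 0.0287, or 0.0623 without both mixed arrays and 0.315 with median centring). Its T cell call was lost in 9 of 24 alternatives.

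B cells had 2 SNARE genes at their highest by a wide margin. Snap29, which acts with Stx17 and Vamp8 in the fusion of autophagosomes with lysosomes, read 1375, 1655 and 1206 in B cells, 670.1, 683 and 533 in CD4 T cells and 592, 705 and 629 in CD8 T cells. Wild-type 33D1 DCs read 542, 706 and 586 and DEC205 DCs 658, 819.6 and 745. No other array reached the B cell range (1.09 ± 0.13 (SE), adjusted p = 7.42e-07, B minus T cells; -1.01 ± 0.13 (SE), adjusted p = 1.50e-06, DCs minus B cells). Bnip1 (Sec20), a SNARE of the ER, read 1091, 1001 and 1089 in B cells, 428, 531 and 414 in CD4 T cells and 545, 520.1 and 498 in CD8 T cells. Wild-type DCs read 551, 316 and 511 (33D1) and 547, 489.7 and 571 (DEC205). B cells again stood apart from every other array (1.05 ± 0.16 (SE), adjusted p = 1.59e-05, B minus T cells; -1.04 ± 0.16 (SE), adjusted p = 1.21e-05, DCs minus B cells). Both genes kept these calls without B cell array 3.

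Between B and T cells 14 of 37 members differed (37.8%, with 26.9% of all genes), 10 higher in B cells (13.1% of all genes) and 4 lower (13.9%). Besides Stx7, Snap29 and Bnip1, those higher were Bet1 (0.64), Snap23 (0.60), Nsf (0.49), Vamp8 (0.45), Vamp7 (0.41), Vamp3 (0.37) and Vti1b (0.33). Lower in B cells were Gosr1 (-0.88), Stx2 (-0.74), Snap47 (-0.71) and Stx6 (-0.46). Without B cell array 3 the calls for Vamp7, Vti1b and Snap47 were lost (adjusted p = 0.0932, 0.0642 and 0.0643), and in DCs against B cells those for Stx17 and Vamp3 (adjusted p = 0.0884 and 0.072). Median centring lost those for Stx6 and Vamp3 between B and T cells (adjusted p = 0.19 and 0.0584). The Vamp3 call between B and T cells was lost in 10 of 21 alternatives, the mean of all probe sets among them (0.13, adjusted p = 0.244). The Stx2 value averages CD4 and CD8 T cells, which differed from each other. With the filter raised to 527.6, 13 members differed between B and T cells, beside 37.9% of all genes left.

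Set against their compartments, the endosomal members were the most one-sided. All 13 had a positive DC minus T cell difference, from 0.08 to 2.46 with a median of 0.65, and 11 passed the test. The plasma membrane members had a median of 0.27 with 4 higher and 2 lower, and the ER-Golgi members a median of -0.05 with 3 higher and 3 lower; the median of all genes was -0.14. Against B cells the medians were 0.50 (9 of 13 higher, 1 lower) for endosomal, 0.38 (5 of 9 higher, 1 lower) for plasma membrane and 0.04 (1 of 12 higher, 1 lower) for ER-Golgi members, beside -0.06 for all genes. The order of the endosomal and plasma membrane medians there was not stable. It turned without B cell array 3 (0.34 and 0.50) and with array weights (0.43 and 0.46), and was kept under the other alternatives. Without the 3 endosomal genes that also work at other sites, the endosomal medians were 0.55 against T cells and 0.54 against B cells over 10 genes. Centring each array on its median moved the median of all genes against T cells from -0.14 to -0.04, and turned the split of all called genes from 3009 higher and 3988 lower to 3284 higher and 3000 lower. The members then split into 18 higher and 4 lower, with medians of 0.75, 0.38 and 0.05 for the endosomal, plasma membrane and ER-Golgi genes, so the sign of the ER-Golgi median depends on the scaling. These are counts and medians of related genes on shared arrays, and the difference between compartments was not tested.

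**Figure D5:**
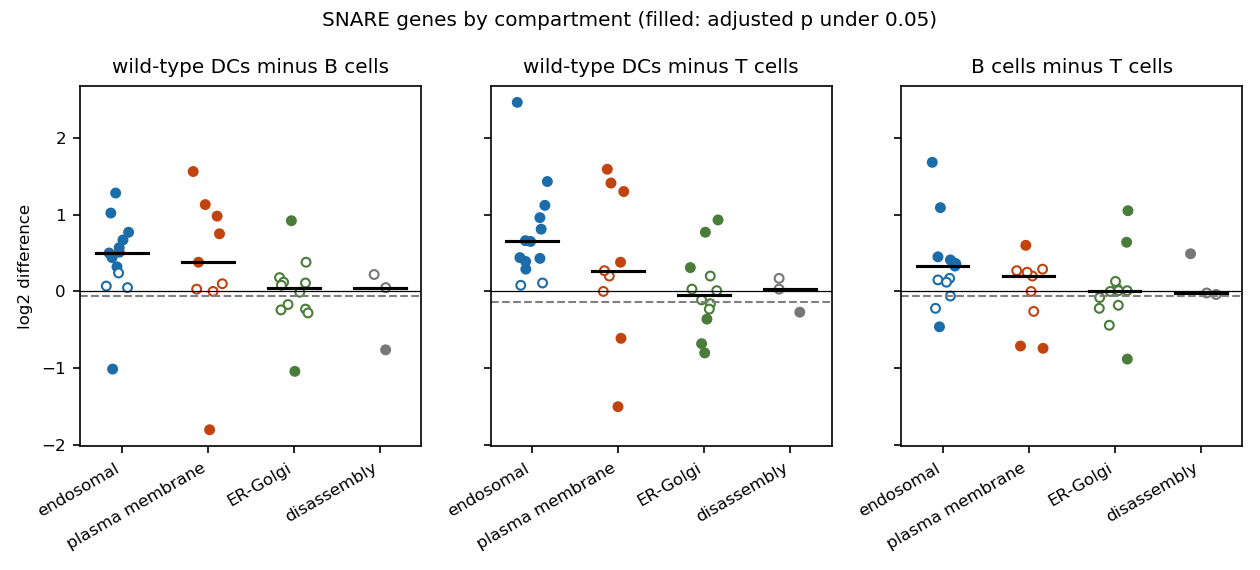
Each point is a SNARE gene's limma log2 difference (vertical axis) for DCs minus B cells, DCs minus T cells and B minus T cells, grouped by compartment; filled points have an adjusted p under 0.05, black bars are the compartment medians and the dashed line is the median of all genes. In DCs minus T cells every endosomal gene lies above 0 (median 0.65), while ER-Golgi genes lie on both sides (median -0.05).

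Proteins that tether membranes or control SNARE assembly were read from a list of 38 genes, 28 of which passed the filter. In wild-type subsets 5 of 28 differed (17.9%, with 23.1% of all genes), against B cells 8 (28.6%, with 40%) and against T cells 18 (64.3%, with 52.7%). The 18 include Stx1a, Sytl1 and Sytl2, which passed the filter through lymphocytes, so that count is partly set by the filter. The share of all genes can hold such genes too. Uso1 (p115), the Golgi tether, had the smallest adjusted p of the list between the wild-type subsets, with 1702, 1855 and 1716 in wild-type 33D1 and 2885, 2989 and 3033 in DEC205 DCs. Those do not overlap (-0.74 ± 0.10 (SE), adjusted p = 8.96e-06), and it was lower in Flt3L than in wild-type DEC205 DCs (2027, 1926 and 2111; -0.54 ± 0.10 (SE), adjusted p = 0.00623). Zw10, of an ER tethering complex, was higher in wild-type 33D1 DCs (0.71, adjusted p = 0.00232), as was Vps33a, an assembly factor of late endosomes (0.47, adjusted p = 0.0178), while Vps41, of the HOPS tether of lysosomes, was lower (-0.44, adjusted p = 0.0107).

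Against T cells the regulators included genes at or near background in DCs. Stx1a, the neuronal plasma membrane syntaxin, read 764, 1005 and 813 in CD4 T cells and 1698, 1514 and 1295 in CD8 T cells. It read 61.3, 14.9 and 56.9 in wild-type 33D1 DCs and 20.5, 137 and 38 in DEC205 DCs, all under the filter of 156.3. Stx1a passed the filter through the lymphocytes alone, so its fitted difference, -3.61 ± 0.30 (SE), is given as a size and not as a test. It also depends on the added 48.6. Sytl2 and Sytl1, synaptotagmin-like Rab27 effectors, were lower in DCs than in T cells too (-2.16 and -2.18). Their DC signals were mostly under the filter, which they passed through the T cells, so these are sizes and not tests. These values too depend on the added 48.6. Sytl1 read 9.8 to 99.7 in wild-type DCs. Sytl2 exceeded 156.3 on 1 DC array (165.8), with means of 776.2 ± 73.8 in CD4 T cells and 90.9 ± 38.7 in wild-type 33D1 DCs (SD, n = 3). Eea1, the early endosome tether, was higher (549, 530.3 and 510.1 in 33D1 and 655, 589 and 568 in DEC205 DCs, 431, 143 and 381 in CD4 and 105, 116 and 138 in CD8 T cells; 1.36 ± 0.17 (SE), adjusted p = 5.33e-07). Against B cells the smallest adjusted p were those of Uso1 (0.49, higher in DCs), Vps16 (-0.48), Vps8 (-0.45) and Stx1a (-1.17), from 0.00011 to 0.0144. The Stx1a value against B cells is likewise a size and not a test, and depends on the added 48.6. Every DC array was under the filter, and B cells read 273.6, 306.7 and 41.7.

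Most called members had other probe sets to compare with. Of the 24 called against T cells, 20 had more than 1 probe set above the filter, and 14 had another called in the same direction. In the wild-type subset comparison this held for 5 of 8, and in DCs against B cells for 10 of 14. No called member had another of its probe sets called the opposite way. Comparisons without a called member, and CD8 against CD4 T cells, had no other probe set to compare. Some probe sets that were not called had the opposite sign. Examples are Vamp4 (-0.31) and Vti1a (-0.13) in DCs against B cells, Vamp5 (-0.34) against T cells and Vamp3 (-0.14) in B against T cells. Vamp5 against B cells (0.38, adjusted p = 0.0471) was called by neither probe set when all 91 probe sets of the members were fitted separately.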

How the data were processed

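Total RNA from sorted splenocytes was measured on 21 Affymetrix arrays. The authors deposited 1 linear intensity per probe set and array. Per the submitters' processing notes, the tools were GCOS and MAS5, whose versions the sources used here do not give. The 2% trimmed mean of each array was 500. The array count, 3 per group, limits the precision.

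Groups and replicate numbers came from the sample titles. Of 45101 probe sets, 34945 have 1 gene symbol, 932 several and 9160 none, besides 64 controls. Genes needed a signal above 156.3, the table's median, on at least 3 arrays, and were read from the probe set with the highest mean. Signals were analysed as log2(signal + 48.6), the offset being the table's 25th percentile, with limma 3.58.1 in R 4.3.3 (lmFit, eBayes with trend, 14 residual degrees of freedom, two-sided) over 7 group means, after a check on simulated data. The members, lists and tests were chosen with earlier results of these data known. Every member is named once; array values are given for called members with a difference of at least 1 (at most 4 per direction) and for the smallest adjusted p of each comparison. Further values are given for members that answer a comparison of compartments or lose a call. Of the regulators at most 4 per comparison are named. Alternatives were the scaling, offset, filter, probe set rule, samples fitted, array weights, replicate block and arrays left out.

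Replicate numbers paired the arrays by the rule used here (all 3 same-number correlations of residuals over 0.1) in 1 of 21 pairs of groups, 33D1 with DEC205 of Flt3L mice (0.23, 0.15 and 0.16).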

Additional observations from a re-analysis of the deposited data

How the results depend on the processing

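Of 79 member differences called over the 9 comparisons, 52 were called under every alternative, and none of 6624 alternative values reversed a called direction: 6477 kept their side of the threshold, 101 lost a call and 46 gained one. The 6624 values include members not called as fitted, for which staying uncalled counts as kept. Only the 79 called differences could lose a call, so 101 of 6624 is not their rate of loss. Counts of called members moved by more than 1.5 times in 5 cases. Between subsets the wild-type count of 10 became 6 without both mixed arrays (19.4% of all genes). The Flt3L count of 11 became 7 (1 higher, 6 lower) with median centring (19.7% of all genes). Array weights gave 1 call (Vti1b, -0.35, adjusted p = 0.0267) for Flt3L in DEC205 DCs in place of 0 (4.32% of all genes). Leaving out single arrays gave 7 to 10 calls between wild-type subsets, 7 to 10 between Flt3L subsets (7 without DEC205 replicate 2), 17 to 19 for DCs against B cells, 23 to 25 against T cells, 11 to 14 for B against T cells, 1 to 2 for CD8 against CD4 T cells (2 without CD4 replicate 2, when Stx11 gave -0.89, adjusted p = 0.0169) and 27 to 30 for any difference. Leave-one-out counts stayed at 0 for the 3 comparisons with 0 calls. The cause of these changes in the counts was not tested, and leaving arrays out also lowers the number of arrays. With the replicate block the counts were 10 and 11 between wild-type and Flt3L subsets (22.6% and 22.9% of all genes). They were 18 for DCs against B cells (39.4%), 24 against T cells (51.9%) and 14 for B against T cells (26.2%). CD8 against CD4 T cells had 1 (3.15%), any difference had 28 (61.5%) and the other comparisons had 0. The 11 Flt3L subset calls stayed called.

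With the mean of all probe sets, 3 of the 13 members higher in DCs than in both lymphocytes lost both calls. Each group has 3 arrays, and a difference that missed the threshold is not shown to be absent.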
